A study of Mus musculus with 6 samples.

Results

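The 9 genes described here code for the proteins that move calcium in each heartbeat: the surface calcium channel subunits Cacna1c and Cacnb2, the release channel Ryr2, the store buffer Casq2, the uptake pump Atp2a2 with its small regulators Pln and Sln, the exchanger Slc8a1 and the membrane tether Jph2. They were chosen by name for their place in that cycle, and they are 9 of the 35411 genes with values. All 9 were abundant enough to be tested. They were measured in hearts of wild-type FVB/NJ mouse fetuses, an inbred strain, collected on gestational day 15. The dams inhaled either titanium dioxide nanoparticles (nano-TiO2) or filtered air (sham), beginning on gestational day 5. The aerosol was set to 12 mg/m3 for 360 minutes a day on 6 days spread over 8. Each group had 3 libraries, and each library came from pooled hearts of male and female fetuses. The study used 14 dams aged 10 weeks, and the labels do not tie pools to litters, so p-values measure the spread between these pools. The libraries are the inputs of a study of RNA methylation, made from fragmented total RNA before any antibody step, so they report RNA abundance.

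In a working heart muscle cell, calcium enters through L-type channels at the surface and opens ryanodine receptors on the sarcoplasmic reticulum, the cell's internal calcium store. The released calcium starts contraction. It is then pumped back by SERCA2, the product of Atp2a2, or exported by the sodium-calcium exchanger, and phospholamban (Pln) and sarcolipin (Sln) bind SERCA and slow it. In the embryo the store and its junctions with the surface membrane are still immature, and calcium crossing the surface carries more of the cycle than in the adult.

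Cacna1c, Ryr2 and Slc8a1 were higher in the nano-TiO2 libraries, by log2 fold changes of 0.94, 1.27 and 0.84. None of the 9 was lower. The 6 other genes did not pass the test. The ratio of Pln to Atp2a2 was lower in every nano-TiO2 library than in every sham library. An exact permutation test on it gave p = 0.1, the smallest possible (two-sided, adjusted p 0.35 over 14 comparisons). Calls used edgeR's quasi-likelihood test with Benjamini-Hochberg adjustment over all 13928 genes tested, at an adjusted p under 0.05. That test called 15.5% of all genes higher and 12.8% lower, so 3 of 9 stands beside a large background. The 3 genes are also the only members in the longest of 5 equal brackets of genes by transcript length, where 43.2% of genes were called higher. In the shortest bracket, which holds Sln, 0.933% were. After a correction in which the smooth dependence on transcript length and GC content was fitted and subtracted within each library, 0.416% of all genes were called higher and 1.25% lower, and none of the 9 was called. Leaving out nano-TiO2 2 raised the count of higher members to 5, and leaving out sham 2 with nano-TiO2 3 took it to 0.

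**Figure D1:**
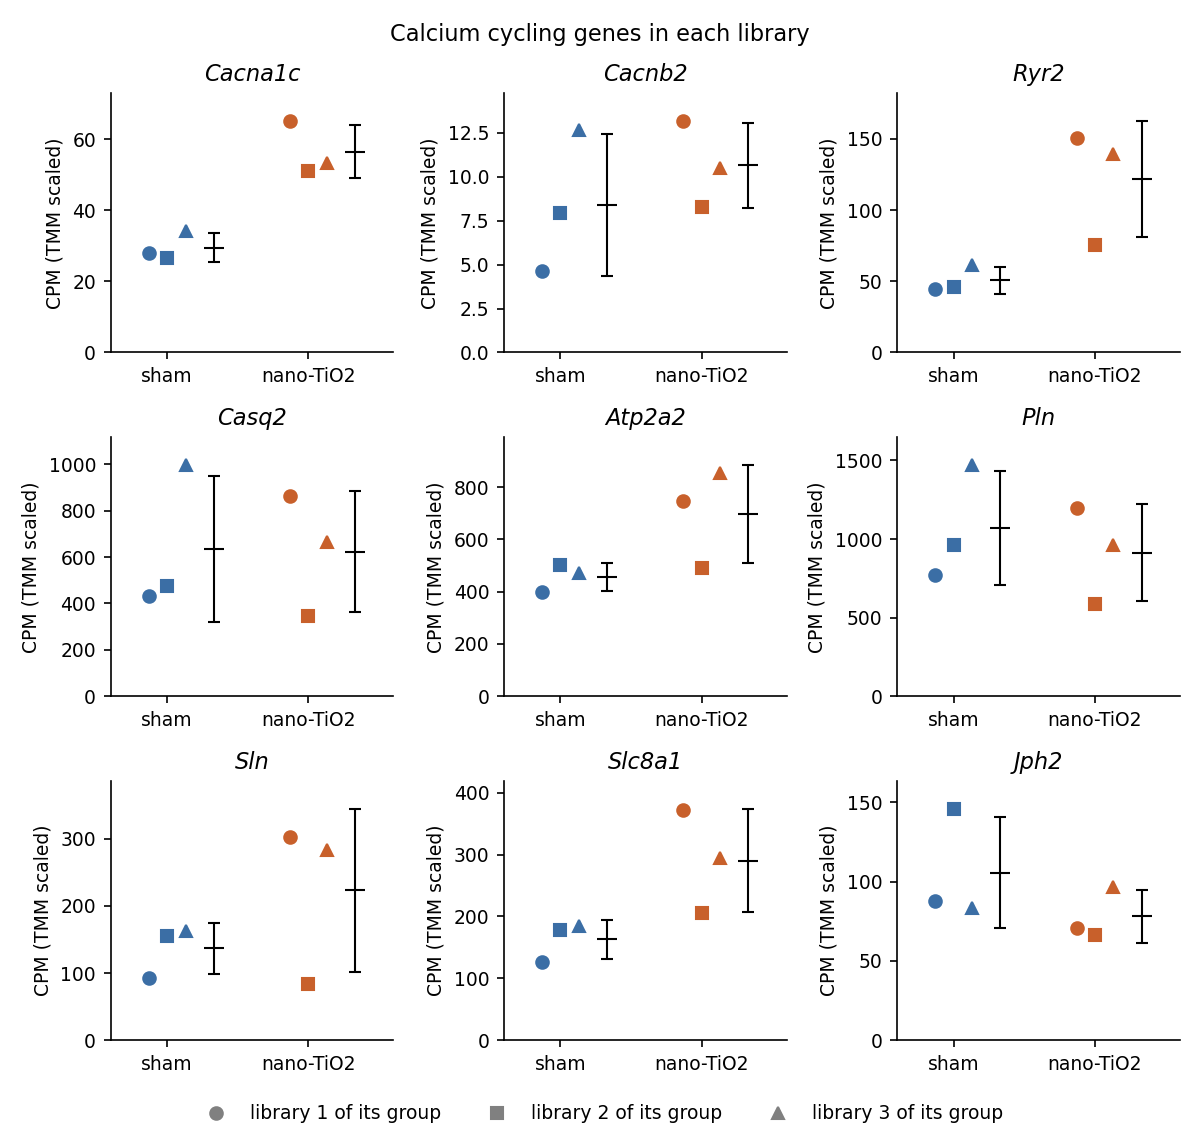
Abundance of the 9 genes in CPM (a share of the reads of each library, scaled with TMM factors, linear axes from 0) in the 3 sham libraries (blue) and the 3 nano-TiO2 libraries (orange). Marker shape is the library number, and bars show the mean and SD of 3 libraries. Cacna1c, Ryr2 and Slc8a1 do not overlap between groups, and the other 6 do.

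**Figure D2:**
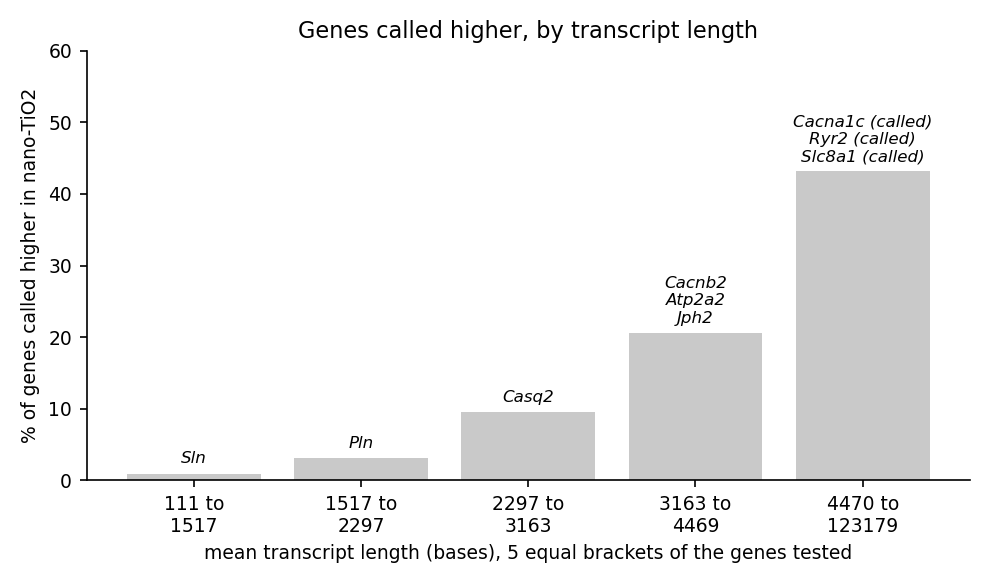
Share of the tested genes called higher in nano-TiO2 (bars, in percent) in 5 equal brackets of mean transcript length in bases, with each of the 9 genes named above the bracket it falls in. The share climbs from 0.933% to 43.2%, and the 3 called members all fall in the longest bracket.

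The libraries held 12881945 to 22720009 estimated reads, and the members had between 98 (Cacnb2, sham 1) and 28916 (Pln, sham 3). All 12 cardiomyocyte markers checked were present, with a summed level of 55082 to 66224 CPM in sham and 38012 to 49824 CPM in nano-TiO2, lowest in nano-TiO2 2. Of these 12, 7 were called lower and 1, Ttn, higher, where 12.8% of all genes were called lower and 15.5% higher. In bulk tissue fewer muscle cells and less RNA per muscle cell cannot be told apart. The part of the dependence on transcript length and GC content in these marker calls was not tested. Haemoglobin genes held 10.6% to 23.4% of the reads in sham and 5.68% to 10.2% in nano-TiO2. Liver transcripts were highest in sham 2 (891.7 CPM over 6 markers, at most 66.9 CPM in the other libraries), and lung transcripts in nano-TiO2 3 (1465 CPM over 4 markers, at most 282.4 CPM elsewhere). Of 11 skeletal muscle markers 8 were tested and none was called. Myod1, Myf5 and Pax7, at 0.567 CPM or less in every library, were too low to test. Myog stood at 0.950 to 4.44 CPM. Mylpf and Myh8 reached 30.2 and 20.9 CPM in nano-TiO2 1, against at most 13.9 and 6.31 CPM in the other libraries. The split of calls depended on scaling: 54.7% of called genes were higher with TMM factors, 64.9% with upper-quartile factors, 98.8% with library totals and 25% after the length and GC correction. Library totals moved the median of all genes to 0.41 and log2(TPM + 1) moved it to 0.47, against -0.01 with TMM, so the direction of a member with a small change is relative to that centre. Markers and library composition moved with the groups, and their part in the results below was not tested.

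Per length of transcript, the genes covered a wide span. In sham hearts Pln had the highest mean, 792.7 TPM (a share of transcripts that takes their length into account), and then came Casq2 at 193.0, Atp2a2 at 87.8, Sln at 82.0, Jph2 at 23.4, Slc8a1 at 9.79, Ryr2 at 5.54, Cacna1c at 5.29 and Cacnb2 at 2.64 TPM. Atp2a2 overlapped Sln and Ryr2 overlapped Cacna1c across the 3 sham libraries, and the other neighbours in this order did not overlap. The nano-TiO2 means fell in the same order, from 858.9 TPM for Pln to 5.68 TPM for Cacnb2. There Casq2, Atp2a2 and Sln overlapped one another, as did Jph2 with Slc8a1, Slc8a1 with Ryr2, and Ryr2 with Cacna1c.

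Calcium entry begins at Cacna1c, which codes for the pore of the L-type channel. Its level was 28.0, 26.5 and 34.1 CPM in sham 1, 2 and 3, and 65.1, 51.1 and 53.5 CPM in nano-TiO2 1, 2 and 3. Every nano-TiO2 library stood above every sham library. The log2 fold change was 0.94 ± 0.16 (SE) with an adjusted p of 0.00851 in edgeR's quasi-likelihood test. Cacna1c kept its call with each library left out in turn, and lost it after the length and GC correction (log2 fold change 0.17, adjusted p 0.62) and with sham 2 and nano-TiO2 3 both left out (0.94, adjusted p 0.13), a fit that called no gene out of 14019.

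Cacna1c has 26 annotated transcripts, and 5 had enough reads to test. The long coding transcript Cacna1c-207 held 67.2%, 51.7% and 52.0% of the gene's reads in sham and 75.2%, 62.8% and 62.5% in nano-TiO2. Its log2 fold change of 1.14 ± 0.21 missed the threshold among 30406 transcripts (adjusted p 0.0535, edgeR), and passed with a stricter filter on low counts. Cacnb2, the accessory subunit that brings the pore to the membrane, was far scarcer. It stood at 4.63, 7.92 and 12.7 CPM in sham and 13.2, 8.30 and 10.5 CPM in nano-TiO2, and sham 3 lay within the nano-TiO2 range. These levels include transcripts annotated as retaining an intron. The most abundant of those held 28.7%, 38.7% and 59.1% of the gene's reads in sham and 37.8%, 38.5% and 22.7% in nano-TiO2. The main coding transcript held 43.4%, 33.8% and 14.5% in sham and 30.4%, 26.6% and 45.1% in nano-TiO2. Their part in the overlap was not tested. With 98 to 254 reads per library the log2 fold change of Cacnb2, 0.34 ± 0.35, was within the spread of the pools (adjusted p 0.494, edgeR). It was 0.10 without sham 1, 0.16 without nano-TiO2 1 and 0.81 without sham 3. It passed on the log2(TPM + 1) scale (0.89, adjusted p 0.00752, limma), where 38.0% of all tested genes were called higher.

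Ryr2 codes for the ryanodine receptor, the channel through which the store empties. Its level was 44.6, 45.9 and 61.2 CPM in sham, and 150.6, 75.2 and 139.4 CPM in nano-TiO2. No libraries overlapped, and nano-TiO2 2 was the nearest to sham. The log2 fold change of 1.27 ± 0.26 was the largest of the 9, with an adjusted p of 0.0123 in edgeR's quasi-likelihood test. The call held in all 6 fits that left out 1 library and was lost after the length and GC correction (0.30, adjusted p 0.579) and without both sham 2 and nano-TiO2 3 (1.13, adjusted p 0.147).

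The table shows where along Ryr2 the reads lay. Of the 1151 steps of about 25 bases (bins) in the series table, only 22 were deep enough to test, and all 22 had a positive log2 difference, from 0.73 to 2.23. Of these, 4 passed at an adjusted p under 0.05 in limma, where 1.14% of all tested bins were called higher. None of these calls remained when sham 2, nano-TiO2 1 or nano-TiO2 3 was left out. Bins were kept by their mean over all libraries, so some could pass through the higher nano-TiO2 libraries. The signs of the 22 are thus not separate support for the difference of the gene. The coding part of the main transcript held 67.1%, 61.2% and 69.1% of its reads in sham and 66.4%, 66.4% and 58.0% in nano-TiO2. Sham 2 and nano-TiO2 3 were the lowest of their groups, as they also were for Casq2, Atp2a2 and Slc8a1, so these libraries held a larger share of reads outside the coding part.

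Casq2, cardiac calsequestrin, holds calcium inside the store next to Ryr2. It stood at 433.4, 476.1 and 996.7 CPM in sham and at 862.5, 344.3 and 662.9 CPM in nano-TiO2. The groups overlapped throughout, and the log2 fold change of -0.03 ± 0.40 was well within the spread (adjusted p 0.967, edgeR). The libraries low in Casq2 were sham 1, sham 2 and nano-TiO2 2. The same 3 libraries were the highest in the embryonic globin Hbb-y, at 4341, 2296 and 3157 CPM, against 107.8 CPM in sham 3, 60.3 CPM in nano-TiO2 1 and 41.3 CPM in nano-TiO2 3. Its part in these levels was not tested. Within a library, the ratio of Casq2 to Ryr2 in TPM was 28.6, 29.5 and 42.1 in sham and 17.9, 14.0 and 16.8 in nano-TiO2. These did not overlap, with a log2 difference of -1.03 (exact permutation test, two-sided, p = 0.1, the smallest that 3 against 3 allows; adjusted p 0.35 over 14 such comparisons).

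Atp2a2 codes for SERCA2, the pump that refills the store. Its transcripts end in either of 2 ways, which give the muscle form SERCA2a and the widely expressed form SERCA2b. The 2 ends of the coding sequence, from the GENCODE M21 transcripts, are shown because the reads tell them apart. Lower case marks the last 30 bases the forms share and capitals mark where they part.
SERCA2a end: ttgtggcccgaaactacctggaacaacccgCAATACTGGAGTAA
SERCA2b end: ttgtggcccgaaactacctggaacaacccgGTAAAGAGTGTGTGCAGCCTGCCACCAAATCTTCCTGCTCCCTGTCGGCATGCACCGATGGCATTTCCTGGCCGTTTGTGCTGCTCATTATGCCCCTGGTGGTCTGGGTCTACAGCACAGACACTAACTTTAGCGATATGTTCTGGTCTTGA

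Atp2a2 stood at 398.9, 500.6 and 470.1 CPM in sham and at 747.8, 490.9 and 854.5 CPM in nano-TiO2. Nano-TiO2 1 and 3 were above all sham libraries, and nano-TiO2 2 lay among them. The log2 fold change of 0.61 ± 0.20 missed the threshold (adjusted p 0.0539, edgeR's quasi-likelihood test). It passed in 9 of 22 alternatives, among them DESeq2 (0.60, adjusted p 0.0216) and the fit without nano-TiO2 2 (0.81, adjusted p 0.00932), and it was 0.14 after the length and GC correction (adjusted p 0.768).

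Nearly all pump RNA carried the muscle end. The terminal exon of SERCA2a held 111.3, 102.8 and 124.7 reads per bin in sham and 172.4, 104.7 and 327.0 reads per bin in nano-TiO2. The SERCA2b end held 10.4, 8.92 and 9.95 reads per bin in sham and 10.7, 9.95 and 20.8 in nano-TiO2. The ratio of the SERCA2b end to the SERCA2a exon was 0.0932, 0.0868 and 0.0798 in sham and 0.0623, 0.0950 and 0.0637 in nano-TiO2, which overlapped (exact permutation test, two-sided, p = 0.4). Salmon gave 10.7% to 15.7% of the gene's reads to Atp2a2-203, a transcript annotated as a target of nonsense-mediated decay. The stretch that only Atp2a2-203 contains held 0.40 to 2.07 reads per bin in the table, so that estimate is not matched by reads in the part unique to it.

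Pln codes for phospholamban, which holds SERCA back until it is phosphorylated. Its coding sequence of 52 codons is shown because it is so short that the reads come mostly from untranslated RNA. Capitals mark codons 16 and 17, the serine and threonine that protein kinase A and CaMKII phosphorylate.
Pln coding sequence: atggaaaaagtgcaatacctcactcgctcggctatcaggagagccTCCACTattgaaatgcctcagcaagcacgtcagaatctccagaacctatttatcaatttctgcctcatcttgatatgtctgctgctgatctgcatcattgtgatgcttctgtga

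Pln stood at 769.3, 962.9 and 1471 CPM in sham and at 1196, 585.8 and 960.3 CPM in nano-TiO2. The groups overlapped, with sham 3 highest and nano-TiO2 2 lowest of all 6. Its log2 fold change of -0.22 ± 0.30 did not pass (adjusted p 0.609, edgeR's quasi-likelihood test), and its sign turned without sham 3 (0.11) or without nano-TiO2 2 (0.01).

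Where the reads lay along Pln separated the 2 groups of libraries, without passing a test. Coverage fell in a step after the coding part and the first stretch of the 3′ UTR, and the 19 bins up to the step (the proximal stretch) were compared with the 69 beyond it (the distal stretch). The 17 bins nearer the start, which held 3.85% to 6.11% of the reads, were left out. Signal in the table sits about 110 bases upstream of the annotated exons of Pln. Counted along the merged exons with that offset added, the step lies near base 1011, and the short coding transcripts Pln-203, Pln-205 and Pln-204 end at bases 955, 1039 and 1043. The last 30 bases of Pln-204 are shown because a variant of the polyadenylation signal lies there. Capitals mark CATAAA, which was found on the sense strand in the last 30 bases of 1.65% of annotated transcripts, against 23.3% for AATAAA and 7.10% for ATTAAA.
Pln-204 last bases: caacatggctCATAAAtttctttcctaaat

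In the proximal stretch the libraries held 509.6, 387.9 and 787.4 reads per bin in sham and 435.3, 239.9 and 559.9 in nano-TiO2. In the distal stretch they held 72.9, 66.8 and 169.9 in sham and 146.4, 60.3 and 160.6 in nano-TiO2. The ratio of the distal to the proximal stretch was 0.143, 0.172 and 0.216 in sham and 0.336, 0.251 and 0.287 in nano-TiO2. Every nano-TiO2 library thus had a larger share of its Pln reads beyond the step, with a log2 difference of 0.73 (exact permutation test, two-sided, p = 0.1, the smallest possible; adjusted p 0.35 over 14 comparisons).

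**Figure D3:**
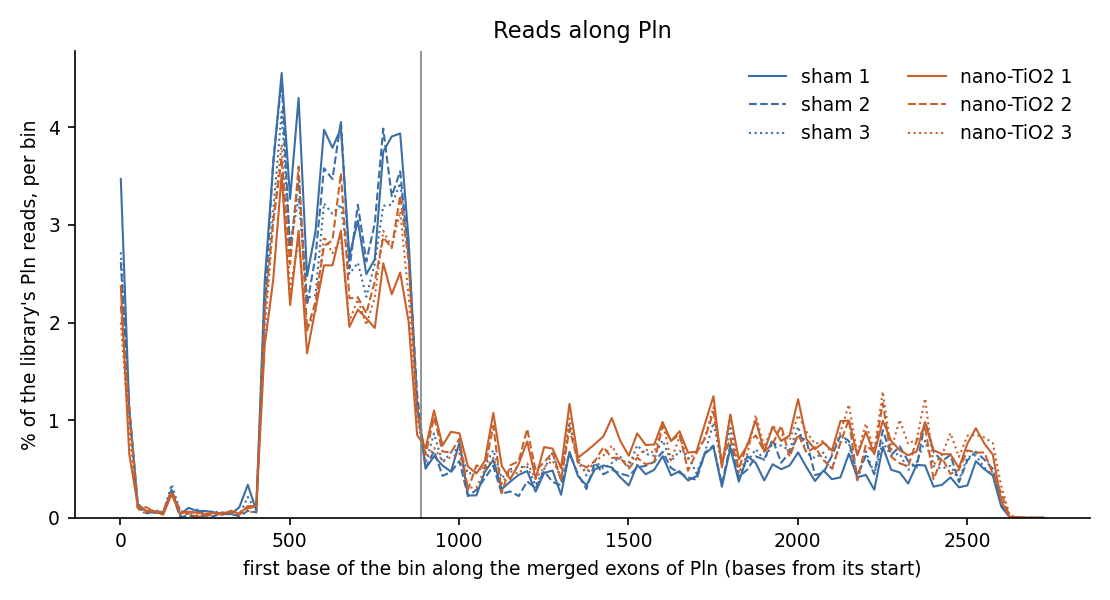
Reads along Pln, as the percent of each library's Pln reads in each bin (linear axis), against the bin's first base along the merged exons, with 1 line per library (sham blue, nano-TiO2 orange). The grey line marks the step in coverage. Single lines cross, but the sham mean is the higher in all 19 bins of the proximal stretch and the nano-TiO2 mean in all 69 of the distal stretch.

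Salmon's split between transcripts was mixed in its point estimates. The short Pln-204 held 17.5%, 14.3% and 11.7% of the gene's reads in sham and 7.74%, 9.87% and 10.0% in nano-TiO2. The long Pln-201 held 44.2%, 58.2% and 59.6% in sham and 73.3%, 64.8% and 71.4% in nano-TiO2. The short Pln-205 held 21.2%, 22.3% and 16.7% in sham and 11.5%, 16.3% and 14.4% in nano-TiO2. Pln-204, Pln-201 and Pln-205 did not overlap between groups. The short Pln-203, at 1.15% to 1.30% in sham and 1.47% to 1.54% in nano-TiO2, also did not overlap. It stood the other way from Pln-204 and Pln-205. Over all genes, 23.3% were higher and 22.4% lower in CPM without overlap. How often transcript shares do not overlap was not counted. Pln-206, which ends beyond the step, overlapped, with mean shares of 8.82% in sham and 3.97% in nano-TiO2. As features of their own, none of the 6 Pln transcripts passed: Pln-204 had a log2 fold change of -0.89 ± 0.22 (adjusted p 0.0840) and Pln-205 of -0.78 ± 0.21 (adjusted p 0.0959, both edgeR).

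The ratio of Pln to Atp2a2 compares the brake with the pump inside each library and so does not depend on scaling between libraries. In TPM it was 8.04, 7.53 and 11.2 in sham and 4.69, 4.11 and 3.61 in nano-TiO2. The groups did not overlap, and the sham ratio was 2.14-fold the nano-TiO2 ratio (log2 difference -1.10, exact permutation test, two-sided, p = 0.1, the smallest possible; adjusted p 0.35 over 14 comparisons). The difference remained between -0.92 and -1.21 when each library was left out.

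Its size depended on how length and GC were handled and on which Pln RNA was counted. The log2 difference was -0.81 in CPM and -0.52 after the length and GC correction, both without overlap of the groups (p = 0.1), and -0.52 with the most abundant transcript of each gene alone (exact permutation p = 0.3). Against the coding exons shared by the Atp2a2 transcripts, the proximal stretch of Pln gave 12.2, 13.5 and 17.3 in sham and 7.29, 6.31 and 6.39 in nano-TiO2, a log2 difference of -1.09. The distal stretch gave 1.74, 2.32 and 3.73 in sham and 2.45, 1.59 and 1.83 in nano-TiO2. These overlapped, with a log2 difference of -0.36 (exact permutation p = 0.5).

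**Figure D4:**
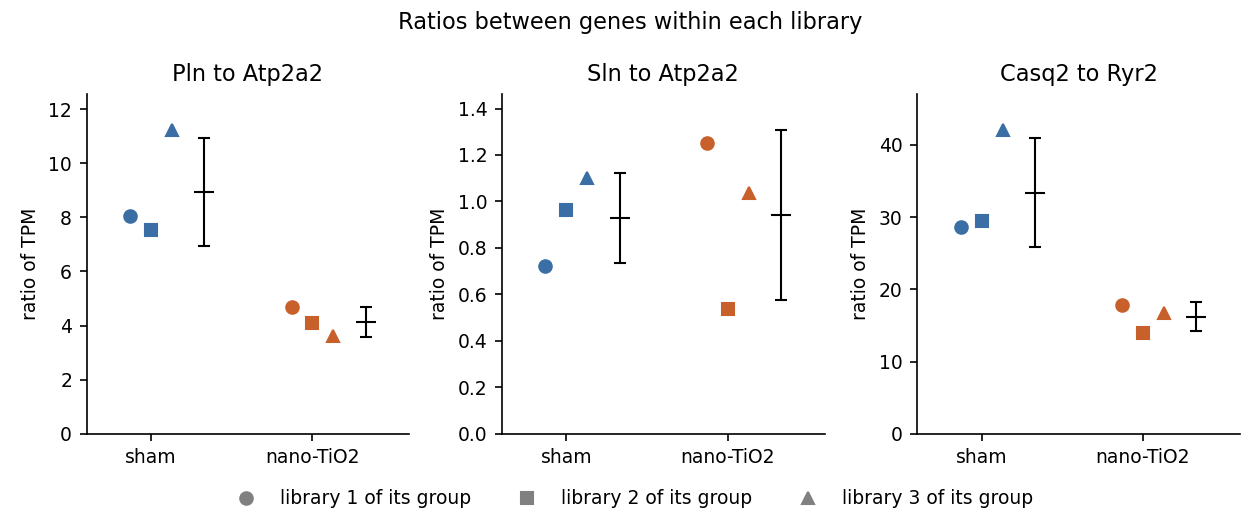
Ratios of TPM within each library for Pln to Atp2a2, Sln to Atp2a2 and Casq2 to Ryr2 (linear axes from 0), with sham in blue, nano-TiO2 in orange, marker shape for the library number and bars for the mean and SD of 3 libraries. The Pln to Atp2a2 ratio lies between 7.53 and 11.2 in sham and between 3.61 and 4.69 in nano-TiO2, while the Sln to Atp2a2 ratios overlap.

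Sln codes for sarcolipin, a shorter relative of phospholamban that is found mainly in atrial and in some skeletal muscle. Its coding sequence of 31 codons is shown for comparison with that of Pln, with capitals for the last 5 codons, the tail that faces the lumen of the store and that phospholamban lacks.
Sln coding sequence: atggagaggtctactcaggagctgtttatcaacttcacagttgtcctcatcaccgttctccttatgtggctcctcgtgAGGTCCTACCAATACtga

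Sln stood at 92.1, 154.8 and 162.9 CPM in sham and at 303.0, 83.6 and 283.7 CPM in nano-TiO2. Nano-TiO2 1 and 3 were the highest libraries and nano-TiO2 2 was the lowest of all 6. Its log2 fold change of 0.71 ± 0.47 did not pass (adjusted p 0.297, edgeR's quasi-likelihood test), and without nano-TiO2 2 it was 1.10 with an adjusted p of 0.0156. Without nano-TiO2 1 it was 0.43 (adjusted p 0.639) and without nano-TiO2 3 it was 0.50 (adjusted p 0.545, both edgeR). Summed over 10 atrial markers, mostly Myl4, Myl7 and Nppa, levels also overlapped, at 5447 to 7064 CPM in sham and 5080 to 6821 CPM in nano-TiO2, with nano-TiO2 2 the lowest. Of these 10, edgeR called 5 higher (Nr2f2, Nr2f1, Kcnj3, Bmp10 and Pam) and 1 lower (Myl4). Over all genes it called 15.5% higher and 12.8% lower. The sum of 6 ventricular markers, mostly Myl2 and Myl3, was lower without overlap, at 8448 to 10911 CPM in sham and 4999 to 6997 CPM in nano-TiO2. Of these 6, edgeR called 2 lower (Myl2 and Myl3) and 1 higher (Hey2), beside the same shares over all genes. Without overlap, 22.4% of all genes were lower. Myl3 is also one of the cardiomyocyte markers. The embryonic skeletal myosin Myh3 was highest in nano-TiO2 1, at 15.4 CPM, against 0.454 to 5.70 CPM in the other libraries. Their part in the Sln levels was not tested.

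The ratio of Sln to Atp2a2 in TPM was 0.723, 0.963 and 1.10 in sham and 1.25, 0.536 and 1.04 in nano-TiO2. The groups overlapped, and the log2 difference was -0.05 (exact permutation test, two-sided, p = 0.9). Leaving out single libraries gave -0.30 to 0.31, with a positive sign without sham 3 (0.09) and without nano-TiO2 2 (0.31). Whether the Pln and Sln ratios differed in their change was not tested.

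Sln's level per length rests on where its RNA ends. The first 19 of its 52 bins held 98.7% to 99.3% of its reads in every library, and the remaining 33 held almost none. The single ATTAAA of the annotated transcript lies at base 575 of 1318, and 30 bases around it are shown because coverage stops near it, given the upstream placement of signal in the table. Capitals mark ATTAAA, which 45.7% of annotated transcripts hold on the sense strand in their last 1318 bases. Sln-201 also holds 1 AATAAA, in its last 30 bases.
Sln-201 around ATTAAA: caccaggttaaaATTAAActggattcttat

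Counted over the first part of Sln alone, the ratio to the shared coding exons of Atp2a2 was 2.27, 3.54 and 3.41 in sham and 4.03, 1.70 and 3.80 in nano-TiO2. These values are above those from TPM in every library, and the stretches counted differ from those behind TPM for both genes. They overlapped between groups as well (exact permutation test, two-sided, p = 1).

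Slc8a1 codes for the sodium-calcium exchanger, which exports calcium and is prominent in the embryonic heart. It stood at 126.4, 177.4 and 184.7 CPM in sham and at 372.3, 204.9 and 294.2 CPM in nano-TiO2. The groups did not overlap, with nano-TiO2 2 close above sham 3. The log2 fold change of 0.84 ± 0.23 passed (adjusted p 0.0302, edgeR's quasi-likelihood test). Leaving out sham 1 or sham 2 raised the adjusted p to 0.0684 or 0.0597, and leaving out the first or the last nano-TiO2 library (1 or 3) raised it to 0.102 or 0.0841, so each of these fits lost the call, and the sign turned after the length and GC correction (-0.19, adjusted p 0.512).

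Most Slc8a1 reads lay outside its coding sequence. In the main transcript, of 18464 bases, the coding part held 14.7%, 8.89% and 12.4% of reads in sham and 9.03%, 11.7% and 6.86% in nano-TiO2. Of its 752 bins 110 were tested, with a median log2 difference of 0.86. Of these, 17 were called higher in limma, where 1.14% of all tested bins were called higher. None of these calls remained in some of the fits that left out a single library, as given below for all members. Bins were kept by their mean over all libraries, so some could pass through the higher nano-TiO2 libraries. The ratio of Slc8a1 to Atp2a2 in TPM was 0.114, 0.102 and 0.118 in sham and 0.131, 0.120 and 0.0951 in nano-TiO2. The exporter and the pump thus kept overlapping proportions in the 2 groups (log2 difference 0.05, exact permutation test, two-sided, p = 0.8).

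Jph2 codes for junctophilin-2, which ties the store to the surface membrane. It stood at 87.6, 146.0 and 83.4 CPM in sham and at 71.0, 66.3 and 96.9 CPM in nano-TiO2. Sham 2 was the highest library and nano-TiO2 3 lay within the sham range. A log2 fold change of -0.43 ± 0.24 did not pass (adjusted p 0.206, edgeR's quasi-likelihood test), and without sham 2 it was -0.09. Jph2 was the member richest in GC, at 62.0%. The coding part held 4.24% to 6.33% of the main transcript's reads in sham and 5.23% to 8.13% in nano-TiO2.

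**Figure D5:**
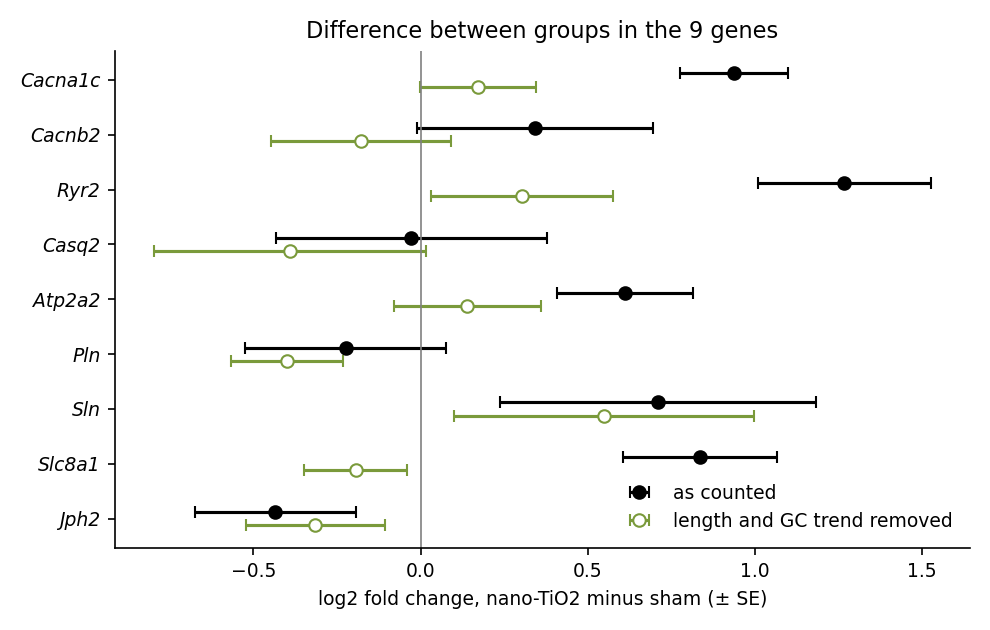
Log2 fold change of each gene (nano-TiO2 minus sham, points with SE bars) as counted (black) and after the length and GC correction (green, open). Cacna1c, Ryr2 and Slc8a1 are at 0.84 or above as counted, and between -0.19 and 0.30 after it.

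Across the 9 genes, the median log2 fold change was 0.61 as counted and -0.18 after the length and GC correction, where the medians over all genes were -0.01 and -0.02. Groups did not overlap for 3 members, all higher, where 23.3% of all genes were higher and 22.4% lower without overlap. At an unadjusted p under 0.05 edgeR gave 4 members higher and 0 lower, where it gave 21.8% of all genes higher and 20.2% lower, and DESeq2 and limma-voom also called 0 lower. Of 33 tested transcripts of the 9 genes, edgeR called 0. The same test called 0.921% of all transcripts higher and 1.1% lower. Before adjustment 6 were higher and 3 lower with p under 0.05, where 11.1% of all transcripts were higher and 11.6% lower. Of 555 tested bins, limma called 30 higher (5.41%, against 1.14% of all bins) and 0 lower, against 4.48% of all bins. At an unadjusted p under 0.05, 160 were higher and 18 lower, where 5.71% of all bins were higher and 19.3% lower. The 30 became 119 without nano-TiO2 2, 1 without sham 1 and 0 when sham 2, nano-TiO2 1 or nano-TiO2 3 was left out. Neighbouring bins share reads, and Cacna1c and Cacnb2 had none deep enough to test. Bins were kept by their mean over all libraries, so those of a gene higher in nano-TiO2 could pass through that group.

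The wider calcium handling list held 72 further genes, of which 68 were tested: 14 were higher and 5 lower, with a median log2 fold change of -0.10. Over all genes 15.5% were higher and 12.8% lower, which is also the background of each set below. Every gene of the list called higher fell in the longest bracket by transcript length or the next longest. Of all tested genes in these brackets, 43.2% and 20.6% were called higher. Strit1 was not matched, and Ryr1, Slc8a3 and Mrln were too low to test. Ryr1, the skeletal muscle release channel, stood at 0.0747 to 0.378 CPM in all libraries. No gene of the list was called higher after the length and GC correction, and 1 was lower. Without sham 2 and nano-TiO2 3 neither direction held a call. The 14 became 6 without nano-TiO2 1 and 9 when either sham 1 or nano-TiO2 3 was dropped, and the 5 became 1 in each of these fits and when sham 2 was dropped.

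The set of other channels of the store had 6 genes tested: Ryr3, the 3 receptors for inositol trisphosphate, and Tmem38a and Tmem38b, which carry counter-ions. In it 3 were higher and 0 lower: Ryr3, a minor ryanodine receptor, by a log2 fold change of 1.68, and the inositol trisphosphate receptors Itpr1 and Itpr2 by 1.15 and 1.14. Itpr1 stood at 13.6, 9.72 and 14.3 CPM in sham and at 32.9, 25.7 and 25.5 CPM in nano-TiO2, without overlap. Ryr3 lost its call without nano-TiO2 1 (adjusted p 0.0588, edgeR), and with length-scaled TPM counts its log2 fold change was 0.31 (adjusted p 0.688, edgeR).

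Among partners and buffers of the release channel, 1 of 13 was higher and 2 were lower. Asph, whose locus also encodes the junctional protein junctin, rose by 0.94. Calm3, which codes for calmodulin, stood at 590.6, 592.8 and 624.4 CPM in sham and at 374.0, 413.8 and 386.0 CPM in nano-TiO2, and fell by 0.62, though it was 0.05 on the log2(TPM + 1) scale. Calm2, which codes for the same protein, was also called lower (log2 fold change -0.39). Triadin (Trdn), which anchors Casq2 to the channel, had -0.23 ± 0.38, and the channel's stabiliser Fkbp1b -0.06 ± 0.21, both not called. The call of Asph in edgeR ended when sham 1 or sham 2 was left out (adjusted p 0.0552 and 0.0661), and likewise for nano-TiO2 1 or 3 (adjusted p 0.0756 and 0.0532). With length-scaled TPM counts Asph also lost its call (0.79, adjusted p 0.0639, edgeR).

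Of 8 other pumps, exchangers and micropeptides tested, 2 (Atp2b1 and Atp2b4) were higher and 0 lower. Atp2b1, a calcium pump of the surface membrane, had 24.2, 24.3 and 26.2 CPM in sham and 72.3, 47.3 and 59.3 CPM in nano-TiO2, a log2 fold change of 1.26 ± 0.18 (adjusted p 0.00630, edgeR). Atp2a1, the skeletal muscle pump, stood at 0.673 to 1.37 CPM in sham and at 8.01, 1.06 and 0.372 CPM in nano-TiO2. Its log2 fold change of 1.45 ± 0.97 was not called and came from nano-TiO2 1, without which it was -0.70.

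The set of 9 other genes of voltage-gated channels holds subunits and Rrad, a small GTPase that inhibits the channel. The 2 called higher were the subunits Cacna1d and Cacna2d1, and the 1 called lower was Rrad. Cacna2d1, an accessory subunit of the same channel as Cacna1c, was higher by 1.38. It lost its call without nano-TiO2 1 (adjusted p 0.0508, edgeR). Of 6 genes listed under dyad and anchoring proteins, 2 were higher and 1 lower. Ank2, ankyrin-B, which anchors the exchanger, rose by 1.37. With length-scaled TPM counts Ank2 lost its call (1.10, adjusted p 0.106, edgeR). Lmcd1 fell by 0.46, though it was 0.20 on the log2(TPM + 1) scale. A place for the Lmcd1 product in the dyad is not shown here. The other gene called higher was Jph1. The call of Lmcd1 ended in edgeR without sham 1 (adjusted p 0.0913), sham 2 (0.118), nano-TiO2 1 (0.0795) or, as the last of these, nano-TiO2 3 (0.0938).

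Of 20 kinases, phosphatases and their regulators, 4 (Camk2d, Pde3a, Akap6 and Prkar2a) were higher and 0 lower. Camk2d, the main cardiac CaMKII, which phosphorylates both Ryr2 and Pln, stood at 74.0, 59.6 and 84.3 CPM in sham and at 179.8, 117.7 and 132.4 CPM in nano-TiO2, a log2 fold change of 0.98 ± 0.19 (adjusted p 0.0114, edgeR). Pde3a, a phosphodiesterase found with SERCA2, rose by 1.22, and Akap6, an anchor for protein kinase A near Ryr2, rose by 1.43. Akap6 lost its call without sham 2 (adjusted p 0.0503) or nano-TiO2 1 (adjusted p 0.0513, both edgeR).

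The genes whose log2 CPM followed a member most closely over the 6 libraries were sought among the 10382 genes that averaged 5 CPM or more. For Atp2a2 these were Ubxn4, Tmcc3 and Mtus2, with Pearson r of 0.998, 0.997 and 0.994. For Pln they were Acot11, Cdh13 and Slc4a3, with r of 0.996, 0.995 and 0.993. For Sln they were Rufy1, Eif4e3 and Lmod2, with r of 0.991, 0.990 and 0.981. With 6 libraries high values are common: 309, 346 and 129 genes had r above 0.9 with Atp2a2, Pln and Sln. The 6 points share library depth, scaling and tissue composition, so these values are a description.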

How the data were processed

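RNA was measured in 6 input libraries of pooled fetal mouse hearts, 3 sham and 3 nano-TiO2, grouped by their titles. Salmon made the estimated counts per transcript, per the file headers, and the deposited values are unscaled. Salmon also computed the TPM column, per the file headers. A table for all libraries gives signal in bins about 25 bases apart, which the authors had divided by a size factor. After undoing that factor, 100% of values were whole within 0.001. Its counting tool is not given in the sources used here. HISAT2 2.2.1, Salmon 1.5.2, DESeq2 1.34.0 and GRCm39 are named in the submitters' processing notes. Names, lengths, GC and sequences were taken from GENCODE M21, which is on GRCm38, and no genome coordinates are printed. Of 116747 transcripts, 115636 matched by identifier and 1111 were left out.

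Estimated counts were summed per gene, rounded, filtered with filterByExpr and tested with edgeR 4.0.16 (quasi-likelihood, robust, TMM, group only), with Benjamini-Hochberg adjustment over all genes. Bins with a mean of at least 10 were tested with limma 3.58.1 on log2(value + 1) under the authors' scaling, under which the median of all tested bins was -0.25. Ratios were compared with exact permutation tests. The length and GC correction used mgcv 1.9.3. DESeq2 1.42.0, limma-voom, other scalings, filters, pseudocounts, blocks and left-out libraries were alternatives. The procedures were tested on simulated data.

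The members and lists were chosen with earlier results of these data known. Named genes are the 9 members and, from the wider list, the 12 with the smallest p plus Trdn, Camk2d (also among the 12), Fkbp1b, Atp2a1 and Ryr1 (some genes and 1 set of the list are not reported here, but stay in its counts). Calm2, Rrad, Cacna1d, Atp2b4, Jph1, Prkar2a, Tmem38a, Tmem38b, Hbb-y, Myh3, Myog, Mylpf, Myh8 and Ttn were chosen after their values were seen. So were atrial and ventricular markers, genes named as untested, the stretches of Pln, Sln and Atp2a2 and 12 of the 14 ratios.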

Additional observations from a re-analysis of the deposited data

How the results depend on the processing

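The count of higher members, 3 as reported, was 5 with log2(TPM + 1) or log2(TPM + 0.1), 0 after the length and GC correction, with or without the block, and 0 without sham 2 and nano-TiO2 3. Leaving out single libraries gave 2 to 5. Among all tested genes, library totals called 30.7% higher, log2(TPM + 1) 38.0% and log2(TPM + 0.1) 37.6%. Length-scaled TPM counts called 10.0% higher and the main fit 15.5%. For the wider list, the 14 higher genes became 24 with library totals, 26 with either TPM setting, 8 with length-scaled TPM counts, and 0 after the correction, with or without the block, or without sham 2 and nano-TiO2 3. Single libraries left out gave 6 to 18. Its 5 lower genes became 3 with upper-quartile factors, 9 with DESeq2, 2 with length-scaled TPM counts, 1 after the correction and 0 with library totals, either TPM setting, the correction with the block, or both libraries left out. Single libraries left out gave 1 to 7. The log2 Pln to Atp2a2 difference of -1.10 became -0.81 in CPM, -0.81 in table reads, -0.52 after the correction, -0.52 for the most abundant transcripts and -0.36 for distal Pln, a choice made after seeing the data. A stricter filter called 1 transcript, Cacna1c-207. The 30 higher bins became 0 to 119 with single libraries left out, 119 of them without nano-TiO2 2.

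Some small changes turned sign. Library totals, log2(TPM + 1) and log2(TPM + 0.1) gave Pln 0.18, 0.14 and 0.14, Casq2 0.36, 0.63 and 0.64, Jph2 0.00330, 0.27 and 0.28, Trdn 0.18, 0.35 and 0.35, and Fkbp1b 0.36, 0.36 and 0.40. The TPM settings gave Calm3 0.0503 and 0.0505, and Lmcd1 0.20 and 0.21. With single libraries left out, Pln ranged from -0.47 to 0.11, Casq2 from -0.34 to 0.49 and Trdn from -0.55 to 0.16, positive without sham 3 and without nano-TiO2 2. Fkbp1b ranged from -0.17 to 0.0366 and Atp2a1 from -0.70 (without nano-TiO2 1) to 1.99. Casq2 was also 0.0294 with upper-quartile factors and 0.0265 in table reads. The correction, without and with the block, gave Cacnb2 -0.18 and -0.12, Slc8a1 -0.19 and -0.19, and Fkbp1b 0.48 and 0.47. Fkbp1b was 0.12 without sham 2 and nano-TiO2 3. The cause of these turns was not tested.

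Same-numbered libraries did not deviate together (correlations -0.39, 0.02 and -0.08), so the numbers are not taken as pairs. With the replicate number as a block, Slc8a1 lost its call (adjusted p 0.0650, edgeR) and Ryr2 and Cacna1c kept theirs (adjusted p 0.0270 and 0.0294). The block gave 2 higher members, 1 lower gene of the wider list and the same Pln to Atp2a2 difference (-1.10, exact sign-flip test, p = 0.25, the smallest 3 pairs allow). The 3 pools per group limit the exact permutation tests to p = 0.1.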
